A study of Homo sapiens with 4 samples.

Results

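The proteasome genes were examined in a table of RNA windows bound by YTHDF1 in gastric cancer cells. They were taken as the protein-coding genes whose symbols begin with PSM, a letter from A to G and a number. The family comprised 48 genes, of which 24 had at least 1 listed window, and these genes held 59 windows of 50 bp. The whole table held 26819 windows, of which 24754 lay in 6679 protein-coding genes. RNA immunoprecipitation sequencing (RIP-seq), which reads RNA that was pulled down with a protein beside the unselected RNA of the lysate (input), was performed in SNU638, an established human gastric cancer cell line. There were 4 libraries, 2 of IP-YTHDF1 and 2 of input, each labelled as a biological replicate. All of them came from cells that overexpressed YTHDF1, a cytoplasmic reader of N6-methyladenosine (m6A) in RNA, and that were kept for 24 h without serum and for another 24 h with 10 ng/ml of IFN-γ. The methods name an antibody to the FLAG tag of the overexpressed protein, and no library of untreated cells, of cells without overexpression or of an IgG pull-down was analysed here, so every value describes binding in the presence of IFN-γ and not a change with it.

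The proteasome is the protease that degrades proteins tagged with ubiquitin. Its 20S core is a barrel of alpha and beta rings with the catalytic sites in the beta subunits PSMB5, PSMB6 and PSMB7, and the 19S particle at its ends, built of ATPases (PSMC genes) and non-ATPases (most PSMD genes), binds, unfolds and feeds in the substrates. IFN-γ induces PSMB8, PSMB9 and PSMB10, which take the places of PSMB5, PSMB6 and PSMB7 in the immunoproteasome, together with the activator subunits PSME1 and PSME2, and this changes the peptides available to MHC class I.

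These 5 genes are therefore compared below with the 31 constitutive subunits of the 20S core and the 19S particle. The stretches around their transcription start sites, which run from 100 bases before the start to 30 after it, are shown because most of them hold an element that is read by interferon-activated factors. Capitals mark the core of the interferon-stimulated response element, in which GAAA is followed by any 2 bases and GAAA again, on either strand. The sequences are those of RefSeq on GRCh38.p14, written 5′ to 3′ on the strand of the gene, at chr6:32844018-32844147 (minus, the nearer of the listed PSMB8 starts to the windows described below, the other of which has no match in the same stretch), chr6:32854092-32854221 (plus), chr16:67936821-67936950 (minus), chr14:24136094-24136223 (plus) and chr14:24146581-24146710 (minus).
PSMB8: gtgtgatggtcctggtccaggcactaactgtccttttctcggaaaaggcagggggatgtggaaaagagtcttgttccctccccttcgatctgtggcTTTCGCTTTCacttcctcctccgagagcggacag
PSMB9: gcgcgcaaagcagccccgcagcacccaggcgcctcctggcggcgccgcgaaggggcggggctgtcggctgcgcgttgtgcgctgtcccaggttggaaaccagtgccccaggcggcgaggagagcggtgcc
PSMB10: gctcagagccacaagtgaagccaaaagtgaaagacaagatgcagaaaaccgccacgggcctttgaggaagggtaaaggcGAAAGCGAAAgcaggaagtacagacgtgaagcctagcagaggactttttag
PSME1: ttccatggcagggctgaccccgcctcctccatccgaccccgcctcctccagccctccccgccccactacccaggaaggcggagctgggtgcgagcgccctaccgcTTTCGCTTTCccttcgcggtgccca
PSME2: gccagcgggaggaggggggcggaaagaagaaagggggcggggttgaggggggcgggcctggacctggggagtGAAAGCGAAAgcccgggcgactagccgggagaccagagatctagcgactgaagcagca

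In promoter windows of 300 bases, this core was found in 4 of the 5 induced genes, namely PSMB8, PSMB10, PSME1 and PSME2. It was found in 2 of the 26 constitutive genes with a promoter entry, PSMA4 and PSMB4, and in 4.38% of all 27305 genes and 3.57% of all 35116 promoters. The gamma-activated core TTCNNNGAA, searched in the same way, matched in PSMB8 alone among the induced genes, in 5 of the 26 constitutive genes, in 9.38% of all genes and in 7.66% of all promoters. The core TGACNNNGC of the antioxidant response element, which is read by NFE2L1, the factor that raises proteasome genes when the enzyme is inhibited, matched in 15 of the 42 family genes with an entry (35.7%) against 16.1% of all genes and 13.3% of all promoters. Its matches included PSMB9, PSME1 and PSME2. No match of one core overlapped a match of another in the family. These are matches of letters and were not tested as binding sites.

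A listed window showed which of these transcripts stood out in the IP-YTHDF1 libraries over input. Each window carries a signal value, a score whose scale is not stated, and a p-value with a q-value adjusted within its gene. Every listed window had a q-value of at most 0.05. The study describes its protein-coding peaks as joined by union of the replicates. It reports fewer enriched genes than the protein-coding genes listed here, so the list cannot be taken as the study's own set. The table has no value for a single library, and it does not show whether a window was found in 1 or in both replicates. Depth and the spread between replicates are therefore unknown, a gene with no listed window cannot be told apart from a gene with too few reads, and values are compared below as descriptions without a test.

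Of the 48 proteasome genes, 24 (50%) had a listed window, against 31.8% of the 20052 protein-coding genes of RefSeq. That background also holds genes that gastric cells do not express, and the RNA level of each gene in the input is not part of the table, so the part of abundance in this difference was not tested. The listed windows were of ordinary signal value but had higher q-values. Their signal values had a median of 1.81 and quartiles of 1.44 and 2.16, and those of all protein-coding windows had a median of 1.83 and quartiles of 1.52 and 2.16. The median q-value was 0.00816 for the proteasome windows and 0.00215 for all protein-coding windows. The strongest window of each gene had a median signal value of 1.99 over the proteasome genes, with a range from 1.27 to 3.60, against 2.23 over all listed protein-coding genes. The number of windows tested per gene, which the ratio of q-value to p-value gives, had a median of 14 in listed proteasome genes and of 35 in all listed protein-coding genes, and its part in the lower strongest values was not tested.

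The number of listed windows per gene had a median of 2 in proteasome genes and of 3 in all listed protein-coding genes. The part of the lower number of windows tested (median 14 against 35) in this was not tested. A pair of windows was the commonest pattern, found in 13 of the 24 genes (54.2%) against 17.6% of all listed protein-coding genes. A further 6 genes (25%) had 1 window, against 29% of all listed protein-coding genes. Another 2 genes had 3 windows, and the longer sets were the 5 windows of PSMD2, the 7 of PSMD3 and the 9 of PSMB9. No gene in the table had more than 9 windows, and 854 protein-coding genes had exactly 9 against 206 with 8, so the count of PSMB9 is read as 9 or more. When windows that touch were joined, the 59 windows of the family formed 40 regions.

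**Figure D1:**
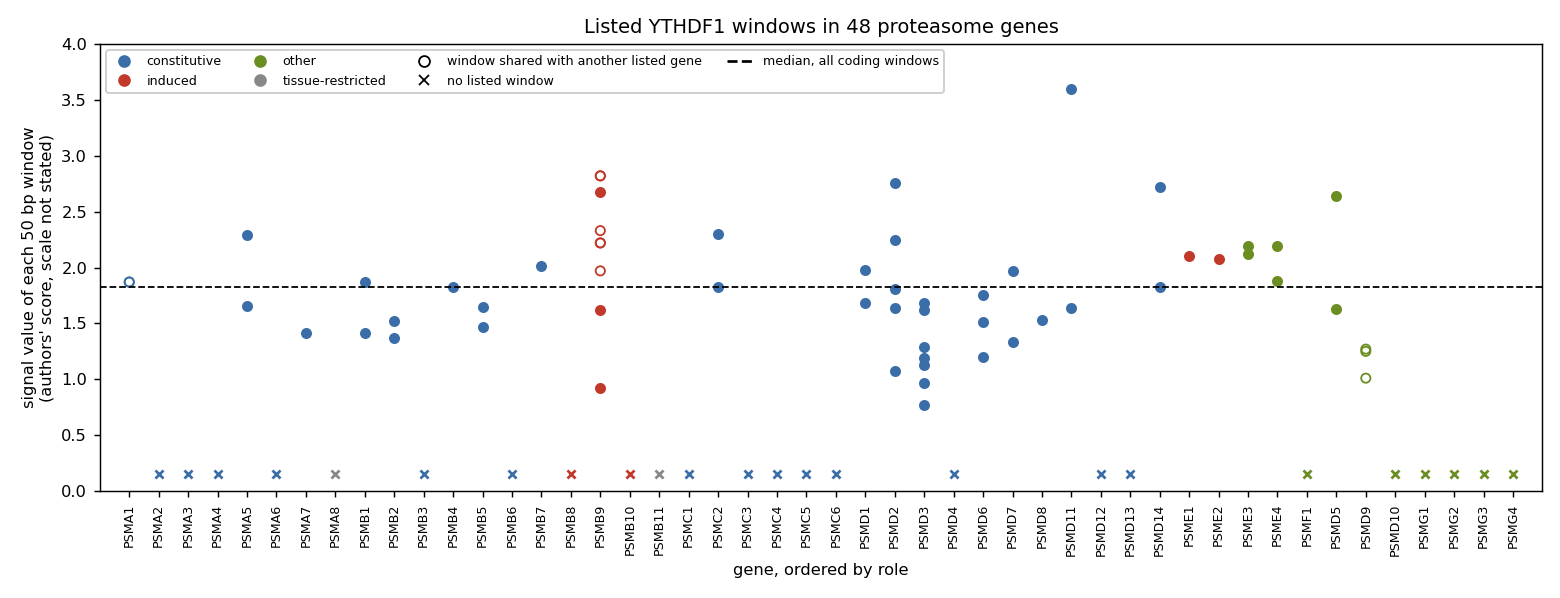
Signal value (vertical axis, the authors' score with no stated scale) of each listed 50 bp window in the 48 proteasome genes, ordered by role on the horizontal axis, with crosses at the bottom for genes with no listed window and open circles for windows that overlap a listed window of another gene. PSMD11 holds the highest point at 3.60, PSMB9 and PSMD2 follow at 2.82 and 2.76, and the dashed line marks the median of all protein-coding windows at 1.83.

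Among the genes induced by IFN-γ, PSMB9, PSME1 and PSME2 had listed windows, and PSMB8 and PSMB10 had none. That is 3 of 5 genes (60%), beside 17 of the 31 constitutive subunits (54.8%), a difference that 1 gene would reverse. The strongest windows of the induced genes had a median signal value of 2.10, with 2.08 in PSME2, 2.10 in PSME1 and 2.82 in PSMB9. Those of the constitutive subunits had a median of 1.87 and ran from 1.41 to 3.60, so that the induced genes lay within the constitutive range. With only windows of a signal value of at least 2, the medians were 2.10 for the induced and 2.51 for the constitutive genes. This limit cuts on the compared value itself. All 3 induced genes passed it and only 6 of the 17 constitutive genes did, so the turn in order follows from the limit. Under a Bonferroni limit over the windows counted in listed genes, the medians were 2.46 and 3.18, with 2 genes left in each group. Windows of genes with no listed window are not in that count.

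**Figure D2:**
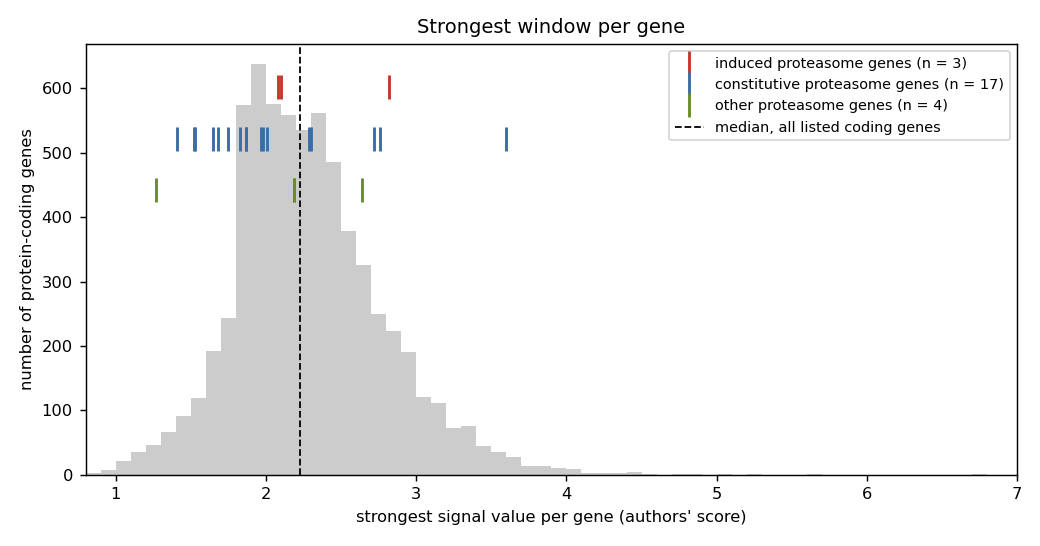
Strongest signal value per gene (horizontal axis, the authors' score), with grey bars counting all listed protein-coding genes in steps of that score and ticks for the 3 induced, 17 constitutive and 4 other proteasome genes. The ticks of the induced genes lie between 2.08 and 2.82, inside the span of the constitutive genes, and the dashed line marks the median of all listed protein-coding genes at 2.23.

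PSMB9 (ENSG00000240065), the immunoproteasome subunit also called LMP2, had the most windows of the family, and most of them did not lie in the PSMB9 gene of RefSeq. All were on the plus strand of chromosome 6, and RefSeq places PSMB9 at chr6:32854192-32859851. The windows inside that interval were chr6:32859487-32859536, with a signal value of 2.68 (q = 6.99e-14), and its neighbour chr6:32859537-32859586, with 1.62 (q = 0.0396), which ended 265 bp before the end of the gene. The other 7 lay before the gene, inside PSMB8-AS1, a long non-coding RNA on the same strand at chr6:32844086-32846500 that starts inside PSMB8, on the opposite strand, and ends 7692 bp before PSMB9.

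The first of these were chr6:32844137-32844186 with a signal value of 2.22 and chr6:32844187-32844236 with 2.33. They lay on the strand opposite to PSMB8, with centres 114.5 and 164.5 bp upstream of its nearer start site. Their first 30 bases are shown because they overlap the PSMB8 promoter entry, so that their letters could be read, and capitals mark 2 purines followed by AC, the letters around which m6A is placed.
PSMB9 at chr6:32844137-32844166, plus: gaccatcacactggGGACcggcttctctgc
PSMB9 at chr6:32844187-32844216, plus: gggaatgatgggtcaagggtcttccgaaga

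A match was found in the first stretch and none in the other. The next window, chr6:32845437-32845486, was the weakest of PSMB9 at 0.92. The strongest stood further on, at chr6:32845737-32845786 with 2.22, at chr6:32845787-32845836 and chr6:32845837-32845886 with 2.82 each (q = 2.79e-12), and at chr6:32845937-32845986 with 1.97. Thus the highest value listed under PSMB9 lay inside the antisense gene. These last 5 windows also lay inside the RefSeq interval of TAP1 at chr6:32845209-32853704, on the strand opposite to that gene.

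The same sequence was also listed under PSMB8-AS1. Its 6 windows had signal values of 2.12, 2.35, 2.45, 2.92, 2.85 and 1.98, and each overlapped a PSMB9 window with an offset of 8 bp. The paired values differed by 0.01 to 0.23. Reads in these windows could not be assigned to PSMB9 or to PSMB8-AS1 from the table. With only the windows inside the RefSeq gene, PSMB9 remained listed at 2.68, which is above the strongest value of 80.8% of listed protein-coding genes, and the medians of 2.10 for the induced and 1.87 for the constitutive genes were the same. The number of windows tested under PSMB9, 70, was the highest of the family.

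**Figure D3:**
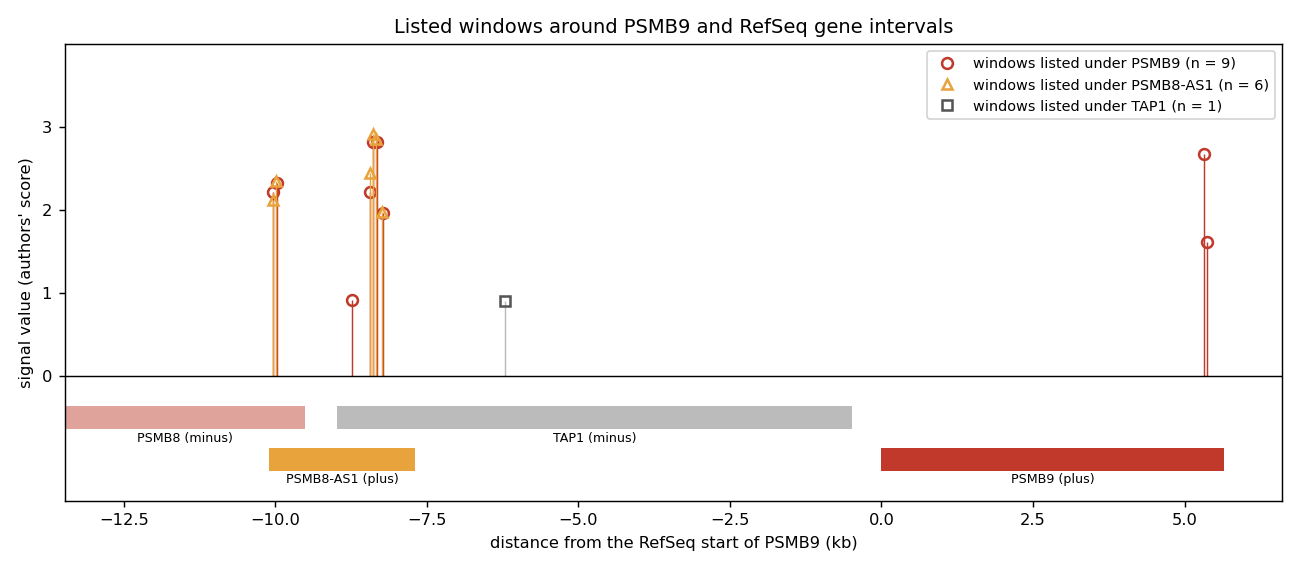
Signal value (vertical axis, the authors' score) of the windows listed under PSMB9 (9 circles), PSMB8-AS1 (6 triangles) and TAP1 (1 square) against distance from the RefSeq start of PSMB9 in kb, with gene intervals as bars beneath. The triangles sit on 6 of the circles over PSMB8-AS1, and 2 circles, at 2.68 and 1.62, lie in PSMB9 itself.

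PSME1 and PSME2 encode the alpha and beta subunits of PA28, a ring that caps the core and opens it without ATP. PSME1 (ENSG00000092010) had 1 window at chr14:24137364-24137413 and a signal value of 2.10 (q = 1.64e-07). PSME2 (ENSG00000100911), its neighbour on the opposite strand, had 1 window at chr14:24145063-24145112 whose signal value of 2.08 was nearly equal but whose q-value was 0.0357. The 2 windows thus differed in support more than in strength. The signal value and p-value of the PSME2 window recurred together in 14 windows of the table, so this pair of values is not particular to PSME2. The other activators, PSME3 (PA28 gamma, a nuclear ring) and PSME4 (PA200), are not counted as induced. PSME3 had neighbouring windows of 2.12 and 2.19 (q = 1.9e-05), and PSME4 had windows of 2.19 (q = 0.000619) and 1.88, centred 50698.5 and 48.5 bp after its start site. All 4 PSME genes were thus listed, beside 31.8% of all protein-coding genes, and this grouping by symbol was not tested. Their strongest values, from 2.08 to 2.19, lay under the median of 2.23 over all listed protein-coding genes. PSMF1, which encodes the inhibitor PI31, had no listed window.

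In the alpha ring, whose subunits form the gate of the core, 3 of 7 genes were listed (42.9%), beside 31.8% of all protein-coding genes. PSMA5 was the strongest, with neighbouring windows of 2.29 (q = 0.000249) and 1.66, centred 11180.5 and 11130.5 bp after its start site. PSMA1 had neighbouring windows at chr11:14520025-14520074 and chr11:14520075-14520124 with the same signal value of 1.87 and the same q-value of 0.0138, a pair of signal and p-value found in 23 windows of the table. They overlapped windows of AC018523.2 on the same strand, so the source of these reads is uncertain. PSMA7 had 1 window of 1.41 (q = 0.0168), and only 2.8% of listed protein-coding genes had a lower strongest value. PSMA2, PSMA3, PSMA4, PSMA6 and the testis subunit PSMA8 had no listed window.

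In the constitutive beta ring, 5 of 7 genes (71.4%) were listed, with strongest values only between 1.52 and 2.01. PSMB7, the trypsin-like subunit that PSMB10 replaces, had 1 window of 2.01 (q = 0.0175). PSMB5, the chymotrypsin-like subunit that PSMB8 replaces and the main target of bortezomib, had windows of 1.47 and 1.65 (q = 0.0302 and 0.0474). PSMB6, the caspase-like subunit that PSMB9 replaces, had no listed window. For none of these 3 sites were both the constitutive and the induced gene listed. PSMB5 and PSMB7 were listed without PSMB8 and PSMB10, and PSMB9 without PSMB6. With 31.8% of all protein-coding genes listed, most pairs of genes would not both be listed, and an unlisted gene may have had too few reads. This count of 3 pairs was not tested and is not read as a pattern.

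The non-catalytic beta subunits were of the same strength. PSMB1 had windows of 1.41 and 1.87 (q = 0.00225) at separate places, PSMB4 had 1 window of 1.83 (q = 0.00184), and PSMB2 had 2 neighbouring windows with a strongest value of 1.52. PSMB3 and the thymus subunit PSMB11 had no listed window.

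The 19S particle is described by kind of subunit, beside the share of 31.8% over all protein-coding genes. Of the ATPases, which unfold substrates, 1 of 6 was listed (16.7%), PSMC2, with neighbouring windows of 2.30 (q = 0.00105) and 1.83. Of the non-ATPases, 8 of 11 were listed (72.7%), and they held 24 of the 59 windows. With 6 and 11 genes these shares are counts of a few members and were not tested. PSMC1, PSMC3, PSMC4, PSMC5 and PSMC6 had no listed window, nor did PSMD4, a ubiquitin receptor, PSMD12 and PSMD13.

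PSMD11 (ENSG00000108671), a lid subunit that clamps the particle to the core, had the strongest window of the family. It lay at chr17:32444530-32444579 with a signal value of 3.60, which is above 99.6% of all protein-coding windows, and its p-value and q-value were deposited as 0. The centre of this window was 44.5 bp after the start site. A second window of 1.64 (q = 0.0152) lay at chr17:32473830-32473879. PSMD2, the base subunit on which ubiquitin shuttle proteins dock, had its strongest window of 2.76 (q = 1.5e-14) 32.5 bp after the start site. Its other windows were 1.64 next to the start and 2.25, 1.81 and 1.07 further along the gene. PSMD14, the deubiquitinase of the lid, had neighbouring windows of 1.83 and 2.72 (q = 5e-06), both near the start site.

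The remaining non-ATPases were weaker. PSMD3 had 7 windows, the most after PSMB9, but with signal values from 0.77 to 1.68, and 2 of the 3 windows under 1 in the family were in it. PSMD3 thus had many but weak windows, unlike PSMB9 and PSMD2, whose 9 and 5 windows reached 2.82 and 2.76. PSMD1, a base scaffold, had 2 windows with a strongest value of 1.98, and PSMD7, the partner of PSMD14, had 2 with a strongest value of 1.97. PSMD6 had 3 windows with a strongest value of 1.75, and PSMD8 had 1 of 1.53, and both belong to the lid.

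The naming pattern holds 7 proteins that help to assemble the proteasome but are not part of it. Of these, 2 of 7 were listed (28.6%), near the 31.8% of all protein-coding genes. Both are chaperones of the 19S base. PSMD5 had neighbouring windows of 2.64 (q = 4.72e-07) and 1.63. PSMD9 had 3 weak windows of 1.25, 1.01 and 1.27, all of which overlapped windows of AC069503.2 on the same strand. PSMD10 (gankyrin), another base chaperone, and PSMG1, PSMG2, PSMG3 and PSMG4, chaperones of the core, had no listed window.

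Many windows of proteasome genes lay close to transcription start sites. RefSeq gave a start site for 21 of the 24 listed genes, and 15 of these (71.4%) had a window centred within 500 bp after it or 25 bp before it. The share was 50.6% over the 5272 listed protein-coding genes with a start site. By windows, 29 of 55 (52.7%) lay there against 28.8%, and by strongest window, 12 of 21 genes (57.1%) against 35.8%. These differences were not tested. Listed proteasome genes also had fewer windows tested (median 14 against 35), and the part of this in the differences was not tested. Distances were measured along the genome, because exon annotation was not used here. The induced genes were not among the 15. No window of PSMB9, PSME1 or PSME2 fell in this range, and their strongest windows inside the gene were centred 5319.5, 1194.5 and 1522.5 bp after the start. For PSMB9 this holds for the RefSeq start only. Of its 9 windows, 7 lay before that start, and the gene model under which they were listed is not known. Of the 14 constitutive genes with a start site, 11 had one (78.6%), as did PSME3, PSME4, PSMD5 and PSMD9. With 3 induced genes this contrast was not tested.

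**Figure D4:**
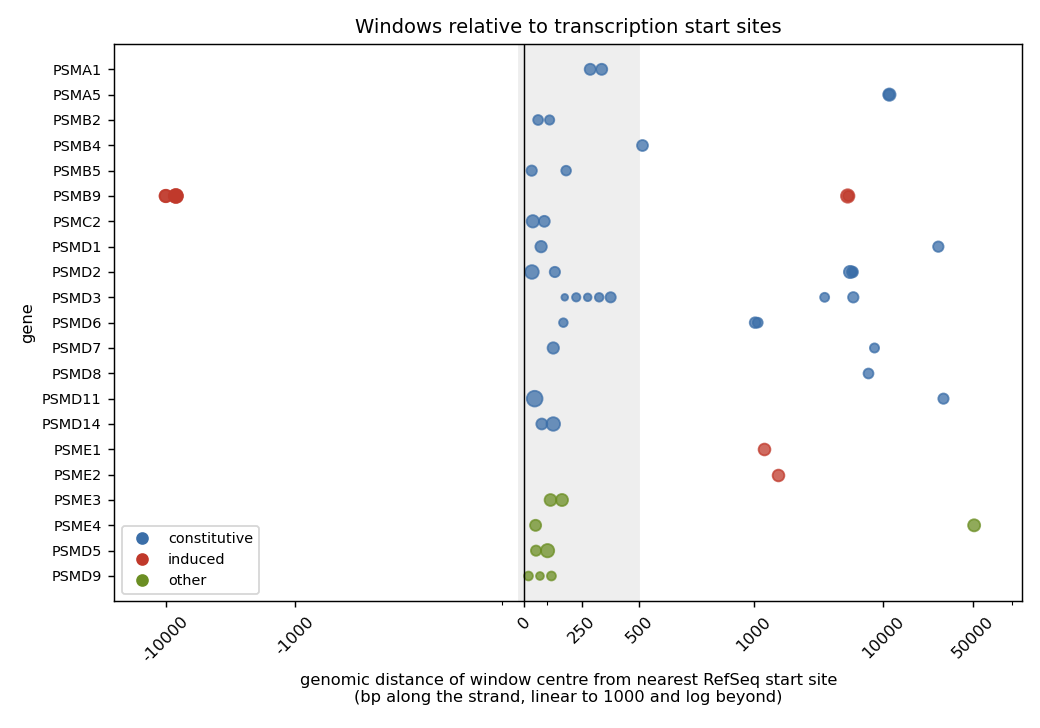
Genomic distance of each window's centre from the nearest RefSeq start site of its gene (horizontal axis in bp, linear to 1000 and logarithmic beyond), with larger dots for higher signal values and grey for the range from 25 bp before to 500 bp after the start. Windows of 15 of the 21 genes fall in grey, and none of the 3 induced genes PSMB9, PSME1 and PSME2 does.

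For windows that begin within the promoter entries of RefSeq, the first 30 bases could be read, and they are shown because they include the strongest start-site windows of the family. Capitals again mark 2 purines followed by AC.
PSMD11 at chr17:32444530-32444559, plus, signal value 3.60: gcggcggcggtggtggagttccagagagcc
PSMD2 at chr3:184299249-184299278, plus, signal value 2.76: ccggcagtggcggcggagatggaggaggga
PSMC2 at chr7:103347655-103347684, plus, signal value 2.30: gaagcaaggaaggtgctgtgtaatcattaa
PSMB5 at chr14:23034864-23034893, minus, signal value 1.65: cccacactAGACatggcgcttgccagcgtg

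The stretch of PSMD9 was read in the same way. Of the 5 stretches, 1 held such a core, that of PSMB5, against 168 of 658 stretches (25.5%) at the starts of all listed protein-coding genes. The stretches of PSMD11 and PSMD2 were rich in GC, at 73.3% each, whereas that of PSMC2 had 40%. The 658 stretches had a GC content of 70.6%. Only these 30 bases of each window were searched, so no match says only that the letters are not in the part that was read.

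Under stricter limits the share of proteasome genes lay near or below that of all protein-coding genes. With a q-value of at most 0.001, 12 proteasome genes remained of 48, a share little above the 21.2% of all protein-coding genes. They were PSMA5, PSMB9, PSMD2, PSMD3, PSMD5, PSMD6, PSMD8, PSMD11, PSMD14, PSME1, PSME3 and PSME4. No beta subunit of the constitutive core and no ATPase was left, but PSMC2 missed the limit narrowly (q = 0.00105). With a signal value of at least 2, 12 genes of 48 remained, again little above the share of all protein-coding genes (22%). Under the Bonferroni limit over all counted windows, PSMB9, PSMD2, PSMD5, PSMD11 and PSME1 remained. These 5 genes of 48 are a share below the 12.5% of all protein-coding genes.

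Genes that work with the proteasome but lie outside the naming pattern were listed at 13 of 19 (68.4%), against 31.8% of all protein-coding genes, with a median strongest signal value of 2.14 and a median of 23 windows tested. DDI2, the protease that activates NFE2L1, was the strongest at 3.45, with 9 windows, and NFE2L1 itself had 8 windows with a strongest value of 1.79. Among the shuttle proteins that carry ubiquitinated substrates, the strongest values were 2.79 in RAD23B, 2.10 in UBQLN4, 2.07 in UBQLN1 and 1.78 in UBQLN2. The ubiquitin ligase UBE3C, which acts on proteasome substrates, reached 2.55. The strongest values were 2.56 in PITHD1, 2.32 in ECPAS, a scaffold bound to the 19S particle, 2.14 in PAAF1, 1.96 in the ubiquitin receptor ADRM1 and 1.94 in ZFAND5. SEM1, a lid subunit, POMP, the maturation factor of the core, the deubiquitinases UCHL5 and USP14, TXNL1 and AKIRIN2 had no listed window.

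The cell type could be checked only weakly. Of 6 epithelial markers, EPCAM, KRT8, KRT18 and KRT19 had listed windows, with strongest values of 1.70, 1.42, 2.25 and 2.21, and CDH1 and CLDN4 had none. The leukocyte, fibroblast and endothelial markers PTPRC, COL1A1 and PECAM1 had no listed window.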

How the data were processed

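The authors deposited 1 table of annotated windows of 50 bp. Per the file headers, each has a signal value and a rank, both read as a score set by the authors, and a deposited p-value and q-value. The submitters' processing notes name STAR 2.7.3a and GRCh38 with no role. The peak caller is not given in the sources used here. Of 26820 entries, 1 repeat was dropped. The table holds 0 columns per library, so the planned edgeR test of counts was not run. Members and gene lists were chosen with earlier results of these data known.

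Windows tested per gene were computed as q-value divided by p-value, multiplied by the window's position in the order of p-values within its gene. In 1000 genes tested on simulated data the number was recovered within 1% in 100%. The simulated q-values were made by the same rule with no window left out, so this checks the arithmetic and not the rule. Of the 854 protein-coding genes with 9 windows, 669 (78.3%) had q-values that point to a window left out. The simulation did not cover that case. Symbols were matched to RefSeq for 6368 of the 6674 coding symbols (95.4%), which some of the 6679 gene identifiers share. Starts were moved to count from 1, and 97.9% of 23634 coding windows lay inside the RefSeq gene of the same symbol. Every window is given for the 5 induced genes and for the 3 strongest members of each role, and the others by number and strongest window. Of the listed genes outside the naming pattern, 1 is not reported here by name. Promoter entries of RefSeq hold 250 bases before and 50 after each start site. Python 3.11.15, pandas 2.3.3, NumPy 2.4.6 and matplotlib 3.10.9 were used.

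Alternatives were stricter limits on q-value, signal value and p-value, windows shared with other genes left out, windows joined, other definitions of the groups and, chosen after seeing the data, windows inside the RefSeq gene alone and other distances from the start site.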

Additional observations from a re-analysis of the deposited data

How the results depend on the processing

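As deposited, 24 proteasome genes held 59 windows, with 3 induced and 17 constitutive genes. With q-values limited to 0.001 there were 12 genes, 21 windows and 7 constitutive genes, and the median strongest signal values were 2.24 over the family, 2.46 over the induced and 2.29 over the constitutive genes. With signal values from 2 upward there were 12 genes, 19 windows and 6 constitutive genes, with medians of 2.29 over the family and 2.51 over the constitutive genes. The Bonferroni limit was p at most 1.61e-07 for the 309983 windows counted in listed genes. Under it there were 5 genes, 7 windows and 2 constitutive genes, with medians of 2.76, 2.46 and 3.18. These limits remove windows by construction. Without windows shared with other genes the medians were 2.04 over the family and 1.92 over the constitutive genes. With the catalytic subunits alone, 2 of PSMB5, PSMB6 and PSMB7 and 1 of PSMB8, PSMB9 and PSMB10 were listed. Counts stayed within 1.5 times when windows were joined (40 regions), when the partner gene PSME3IP1, listed under the symbol FAM192A, was added (25 genes), when PSMA8 and PSMB11 were left out (24), when chaperones, PSMF1, PSME3 and PSME4 were counted as constitutive (21), and, in alternatives chosen after seeing the data, with windows inside the RefSeq gene alone (52 windows) and with start-site limits of 250 bp (14 genes) and 1000 bp (16 genes). No paired analysis was possible because no value per library is given, and for the same reason leaving out each replicate was not run. Depth is unknown, so a gene without a listed window may have had too few reads.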

Other observations

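Besides PSMB8-AS1, long non-coding genes named after proteasome neighbours were listed as PSMA3-AS1 and PSMG3-AS1, with 1 window each. PSMA3 and PSMG3 themselves had no listed window, as was so for PSMB8. These 3 antisense genes held 8 windows in all, of which 6 belonged to PSMB8-AS1. TAP1, a peptide transporter gene on the opposite strand that overlaps the end of PSMB8-AS1, had 1 window with a signal value of 0.91.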
